A study of Homo sapiens with 8 samples.

Results

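Genes for mitochondrial protein import, for fusion and fission of the organelle and for its chaperones and proteases were followed in MDA-MB231 cells with lowered ESRRA. MDA-MB231 is an established human line from a triple-negative breast cancer. The members are every row of the count table whose symbol starts with TIMM or TOMM (23 genes) and 16 named genes, MFN1, MFN2, OPA1, DNM1L, FIS1, MFF, PHB, PHB2, HSPD1, HSPE1, HSPA9, LONP1, CLPP, CLPX, YME1L1 and AFG3L2. That makes 39 of the 23368 symbols, and all 39 passed the filter on low counts. The cells carried 1 of 4 small interfering RNAs (siRNAs), delivered with the reagent interferin into cells kept in DMEM with 10% FCS. siC is the control siRNA, while siE1, siE2 and siE3 each target the mRNA of ESRRA, which encodes the orphan nuclear receptor ERRα. Every group had 2 RNA-seq libraries, 8 in all, and the time from transfection to harvest was not stated.

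Most mitochondrial proteins are encoded in the nucleus and enter the organelle through the TOM complex of the outer membrane. They are then passed to the TIM23 complex, which takes proteins with a presequence into the matrix with the help of an ATP-driven motor, or through the small TIM chaperones to the TIM22 complex, which inserts carriers into the inner membrane. Chaperonins fold and AAA proteases clear proteins inside, and dynamin-like GTPases fuse and divide the organelle. ERRα is known as a regulator of nuclear genes for mitochondrial energy metabolism, and MFN2 has been described as a gene that ERRα activates together with PGC-1 coactivators.

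Total counts ran from 21835995 to 25880548 per library. In TMM-scaled CPM (counts scaled to a common library total), siC libraries held 62.9 and 64.8 of ESRRA mRNA. The siE1 libraries held 10.3 and 10.5, the siE2 libraries 8.86 and 7.25 and the siE3 libraries 8.55 and 8.31. Its mean was thus 16.2%, 12.6% and 13.2% of the control with siE1, siE2 and siE3 (log2 fold changes -2.62, -2.99 and -2.92, edgeR adjusted p = 7.25e-12, 6e-12 and 4.91e-12). All 8 genes listed as expressed in the line were above 1 CPM under siC. They summed to 9720 to 9880 CPM under siC and 10300 to 11100 with the ESRRA siRNAs. Of 8 luminal or epithelial genes, listed as low or absent in the line, 5 were above 1 CPM (EPCAM, GATA3, KRT8, KRT18 and ERBB3). The same held for 0 of 5 leukocyte, 1 of 4 endothelial (KDR) and 1 of 5 fibroblast genes (COL1A1). The luminal or epithelial genes, of which 1 had no count in any library, summed to 518 to 529 CPM under siC, 578 to 611 with siE1, 568 to 572 with siE2 and 467 to 478 with siE3. The leukocyte genes, 2 of them without a count, summed to 0.214 to 0.274 CPM under siC and at most 0.949 with an ESRRA siRNA. The endothelial sum was 1.96 to 2.31 CPM under siC and 2.5 to 4.25 with the ESRRA siRNAs, with siE1 highest. The fibroblast sum was 5.31 to 6.71 CPM under siC and 4.11 to 10.2 with the ESRRA siRNAs, with siE2 highest. The part of these other genes in the results below was not tested. Whether the 2 libraries of a siRNA are separate cultures is not stated, and p-values here then cover only their spread, possibly a technical one. In bulk RNA, fewer cells with a transcript and less of it per cell cannot be told apart.

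More members were called lower than higher with each ESRRA siRNA. Of 39, siE1 lowered 25 and raised 3 at an edgeR adjusted p below 0.05, or 71.8% called, where 50.3% of all tested genes were called (25.8% lower and 24.5% higher). siE2 lowered 28 and raised 2 (76.9% called), beside 56.4% of all tested genes (28.5% lower and 27.9% higher). siE3 lowered 19 and raised 3 (56.4% called), beside 42.1% (20.8% lower and 21.3% higher). In the average of the 3 siRNAs 29 members fell and 2 rose (79.5% called), where 51.1% of all tested genes were called (27.7% lower and 23.4% higher). The median log2 fold change of the members was -0.24 with siE1, -0.32 with siE2 and -0.14 with siE3, against -0.01, 0.01 and 0.00 over all tested genes. Most steps were small: with at least 1.5-fold also required, 2, 5 and 2 of the 39 members were left with siE1, siE2 and siE3, all of them lower. These are smaller shares than the 14.7%, 18% and 9.97% of all tested genes that passed. In the average 3 members passed that limit (9.53% of all tested genes). The 3 comparisons share the siC libraries, so they are not independent of each other.

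**Figure D1:**
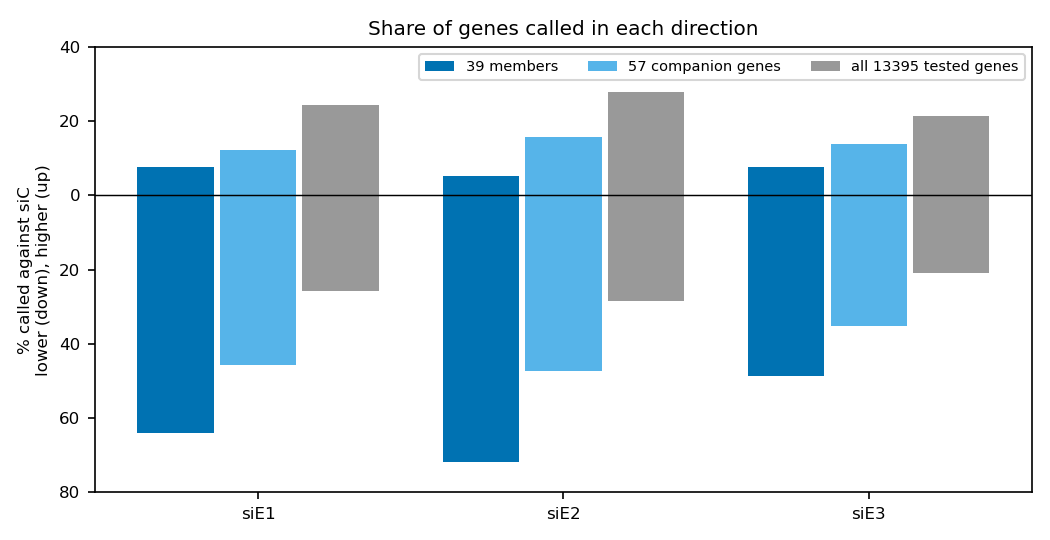
Share of genes called higher (bars up) and lower (bars down) against siC at an edgeR adjusted p below 0.05, in percent, for the 39 members, 57 companion genes of the same pathways and all 13395 tested genes. The members' bars reach 64.1%, 71.8% and 48.7% lower with siE1, siE2 and siE3 and at most 7.69% higher.

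The 39 members together took 6446 and 6620 CPM under siC, 5433 and 5297 with siE1, 4884 and 4884 under siE2 and 5559 and 5738 under siE3. No siRNA library reached the level of a siC library. Without HSPD1 and HSPA9, the most counted members, the sums were 4915 and 5072 under siC and 3915 to 4456 in the 6 siRNA libraries. In 22 of 39 members all 6 siRNA libraries lay below both siC libraries (15.4% of all tested genes), and in 2, TIMM17B and TIMMDC1, all 6 lay above (15.1%). siE2 gave the lowest group mean for 21 members (28.3% of all tested genes), siE1 for 10 (27.2%) and siE3 for 6 (19.7%).

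All 3 siRNAs lowered 15 of the 39 (7.42% of all tested genes) and raised 0 (8.73%). The 15 were TOMM20, TOMM22, TOMM70A, TIMM17A, TIMM21, TIMM44, TIMM50, TIMM8A, HSPA9, MFN2, OPA1, PHB2, HSPD1, LONP1 and AFG3L2. Another 11 fell with 2 siRNAs (14.1% of all tested genes). TOMM5 and MFN1 were called in opposite directions by different siRNAs (10.7% of all tested genes). TOMM20L, TOMM6, CLPX and YME1L1 were not called with any siRNA (21.2%). How many of all tested genes stay lower with all 3 siRNAs when a library is left out was not counted. Of the 15, 9 were lower with all 3 siRNAs whichever of the 8 libraries was left out: TOMM20, TOMM22, TIMM17A, TIMM50, HSPA9, TIMM8A, MFN2, PHB2 and HSPD1. The count of 15 dropped to 10 without siC replicate 2, where AFG3L2, LONP1, OPA1, TIMM44 and TOMM70A each lost a call.

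**Figure D2:**
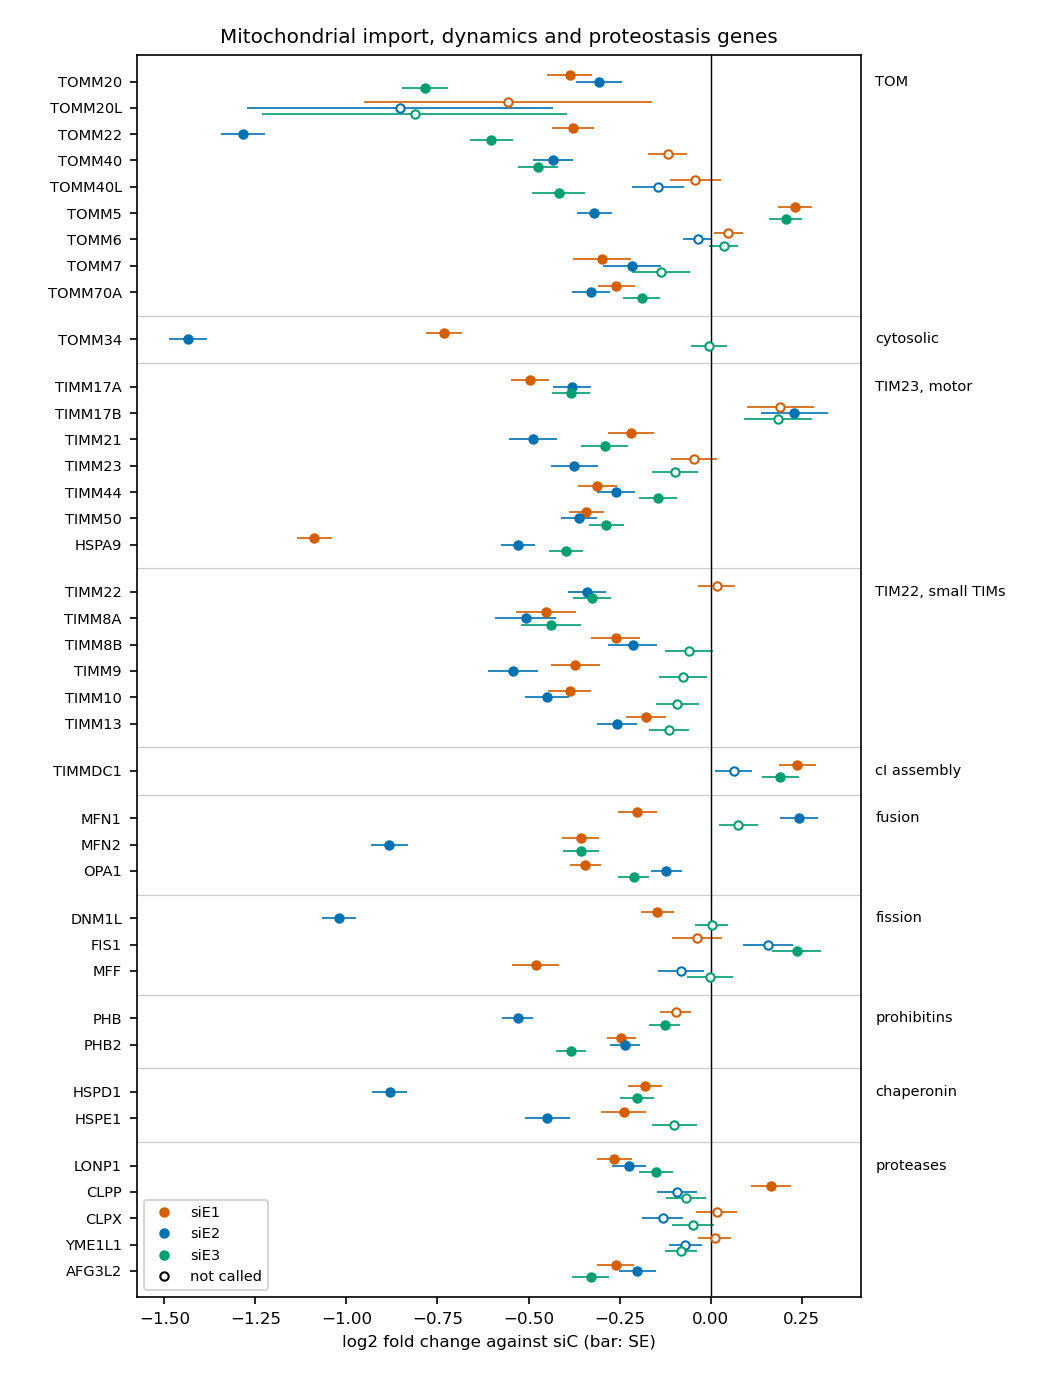
log2 fold change against siC (x axis, bars are the SE) of each of the 39 members, grouped by role, for siE1, siE2 and siE3. Filled points passed an edgeR adjusted p of 0.05 and open points did not. The points farthest to the left are TOMM34 (-1.44) and TOMM22 (-1.28) with siE2 and HSPA9 (-1.09) with siE1, while TOMM6, CLPX and YME1L1 stay near 0.

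The outer membrane translocase was lowered at its receptors by every ESRRA siRNA. TOMM22, the central receptor that holds the complex together, stood at 95.3 and 101 CPM under siC, 77.4 and 73.6 with siE1, 39.8 and 40.6 under siE2, and 61.8 and 67.3 under siE3. The 4 groups did not overlap, and siE2 was lowest. Its log2 fold changes were -0.38 (SE 0.0576), -1.28 (SE 0.061) and -0.60 (SE 0.0585) with siE1, siE2 and siE3 (edgeR adjusted p = 6.24e-05, 2.97e-10 and 9.23e-07). TOMM20, the receptor for presequences, stood at 247 and 264 CPM under siC, 205 and 186 with siE1, 212 and 201 under siE2, and 139 and 158 under siE3. Here siE3 was lowest, with no overlap with the other groups (-0.78, SE 0.0636, edgeR adjusted p = 1.38e-07), against -0.39 with siE1 and -0.31 with siE2 (edgeR adjusted p = 1.03e-04 and 6.17e-04). TOMM20 was higher by 0.40 with siE1 and by 0.48 with siE2 than with siE3 (edgeR adjusted p = 1.15e-04 and 1.87e-05). TOMM70A, the receptor for carrier proteins and for chaperone-bound precursors, went from 223 and 236 CPM to 200 and 183, 180 and 186, and 197 and 206 (log2 fold changes -0.26, -0.33 and -0.19). The siE3 call of TOMM70A was lost without siC replicate 2 (edgeR adjusted p = 0.0846) or siE3 replicate 1 (0.0533).

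Around these receptors the TOM genes split. TOMM40, the channel itself, stood at 206 and 222 CPM under siC and at 206 and 188 with siE1, not called (log2 fold change -0.12, edgeR adjusted p = 0.082). siE2 and siE3 lowered it to 160 and 156 and to 149 and 159 CPM (log2 fold changes -0.43 and -0.47, edgeR adjusted p = 7.09e-06 and 5.68e-06). With siE1, TOMM40 was called lower without siC replicate 1 (edgeR adjusted p = 0.0405) or siE1 replicate 1 (0.0305). Its homolog TOMM40L fell with siE3 alone, at 28.3 and 29.4 CPM against 37.1 and 40.1 under siC (-0.42, edgeR adjusted p = 2.7e-04). siE1 and siE2 stood above siE3 there, by 0.38 and 0.27 (edgeR adjusted p = 5.54e-04 and 0.00606). Without siE2 replicate 1 the difference from siE2 did not pass (0.0748).

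Of the small TOM subunits, which assemble and stabilise the channel, TOMM5 moved both ways. It stood at 141 and 141 CPM under siC, rose to 164 and 168 with siE1 and to 159 and 167 with siE3, and fell to 111 and 116 with siE2. The log2 fold changes were 0.23 (SE 0.0463), 0.21 (SE 0.0464) and -0.32 (SE 0.0472), with edgeR adjusted p = 6.76e-04, 0.00219 and 3.41e-05. TOMM7 fell with siE1 (-0.30) and siE2 (-0.22), from 62.0 and 59.5 CPM to 53.2 and 45.7 and to 55.6 and 48.9. The siE1 call of TOMM7 was lost without siE1 replicate 2 (edgeR adjusted p = 0.102). Its siE2 call was lost without siC replicate 1 (0.13), siC replicate 2 (0.0519) or siE2 replicate 2 (0.276) and with scaling to library size only (0.0707). TOMM6 lay between 284 and 303 CPM in all 8 libraries, with log2 fold changes from -0.04 to 0.05. TOMM20L, a TOMM20 homolog, was at 0.259 to 0.857 CPM, and its log2 fold changes of -0.56, -0.85 and -0.81 (SE 0.396 to 0.419) were not called. In the average it passed without siE2 replicate 2 (-0.93, edgeR adjusted p = 0.0408).

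TOMM34, a cytosolic co-chaperone that holds precursors for import, showed the widest spread between siRNAs among the members. It stood at 302 and 320 CPM under siC and at 310 and 310 with siE3. With siE1 it was at 189 and 185 CPM and with siE2 at 109 and 121. siE1 and siE2 thus lay below siC and siE3 without overlap, and siE3 was within the siC range. Fold changes (log2) were -0.73 (SE 0.0497), -1.44 (SE 0.0512) and -0.004 (SE 0.0488) with siE1, siE2 and siE3 (edgeR adjusted p = 1.35e-08, 2.07e-11 and 0.955). siE2 minus siE3 was -1.43 (SE 0.0513, edgeR adjusted p = 1.92e-11), siE1 minus siE2 0.70 and siE1 minus siE3 -0.73.

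The TIM23 translocase and its motor fell with all 3 siRNAs in 5 of 7 genes (7.42% of all tested genes). HSPA9 (mortalin, mtHsp70), the Hsp70 that pulls precursors into the matrix, stood at 772 and 790 CPM under siC, 377 and 358 with siE1, 548 and 534 under siE2, and 568 and 618 under siE3. No 2 groups overlapped, and siE1 was lowest, at 47.1% of the siC mean. The log2 fold changes were -1.09 (SE 0.0472), -0.53 (SE 0.0466) and -0.40 (SE 0.0465), with edgeR adjusted p = 1.14e-10, 1.6e-07 and 6.1e-06. siE1 was below both others (siE1 minus siE2 -0.56, siE1 minus siE3 -0.69, edgeR adjusted p = 9.63e-08 and 1.65e-08). The difference of -0.13 between siE2 and siE3 was lost without siE2 replicate 2 (edgeR adjusted p = 0.155) or siE3 replicate 2 (0.239), with scaling to library size only (0.0871), with the replicate block (0.0514) and in a fit of only the groups compared (0.0506).

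TIMM17A and TIMM50 fell with each siRNA. TIMM17A, a channel subunit, stood at 133 and 138 CPM under siC, 98.9 and 93.8 with siE1, 108 and 100 under siE2, and 103 and 105 under siE3 (log2 fold changes -0.50, -0.38 and -0.38, edgeR adjusted p = 1.45e-06, 1.53e-05 and 2.69e-05). TIMM50, the receptor on the inner membrane side, went from 161 and 169 CPM to 134 and 127, 132 and 125, and 135 and 136 (log2 fold changes -0.34, -0.36 and -0.29, edgeR adjusted p = 3.53e-05, 1.52e-05 and 2.41e-04). In neither gene did any pair of siRNAs differ at the threshold, though TIMM17A passed for siE1 minus siE2 with scaling to library size only (-0.15, edgeR adjusted p = 0.0204) or without siE2 replicate 2 (0.0391). Like TIMM8A and LONP1, TIMM17A and TIMM50 fell with every siRNA and were called in none of the 3 comparisons between siRNAs. A difference that is not called is not shown to be absent. How many of all tested genes have this pattern was not counted.

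TIMM44, which tethers the motor to the channel, stood at 89.1 and 87.6 CPM under siC and at 69.4 and 72.9, 73.5 and 74.0, and 77.7 and 82.2 with the ESRRA siRNAs (-0.31, -0.26 and -0.14). The siE3 step of TIMM44 (edgeR adjusted p = 0.0393) was lost on leaving out 6 of the 8 libraries: either of siC (0.151 and 0.0981), siE1 replicate 1 (0.05), either of siE2 (0.0598 and 0.0536) or siE3 replicate 1 (0.208). It was also lost with a replicate block (0.0578), with DESeq2 (0.0933), with no filter on low counts (0.0596) and in a fit of only the groups compared (0.0683). TIMM21, which links TIM23 to TOM and to respiratory chain assembly, went from 37.9 and 37.1 CPM to 32.6 and 31.9, 26.6 and 26.9, and 30.2 and 31.1 (-0.22, -0.49 and -0.29). Its siE1 call was lost without siC replicate 1 (edgeR adjusted p = 0.0553), without siE1 replicate 2 (0.0657) and with DESeq2 (0.052). TIMM23, the channel, was at 61.1 and 63.2 CPM under siC and fell with siE2 alone, to 49.5 and 46.4 (-0.37, edgeR adjusted p = 1.31e-04). siE1 stood above siE2 there by 0.33, and siE2 minus siE3 was -0.28 (edgeR adjusted p = 4.03e-04 and 0.00228).

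TIMM17B, the second form of TIMM17, stood at 24.8 and 22.0 CPM under siC and at 24.9 to 28.9 in the 6 siRNA libraries. It rose with siE2 (0.23, SE 0.0927, edgeR adjusted p = 0.0457) but not at the threshold with siE1 (0.19, 0.0985) or siE3 (0.19, 0.125). The siE2 call was lost without siC replicate 2 (edgeR adjusted p = 0.314) or siE2 replicate 2 (0.291), with the replicate block (0.0695) and with DESeq2 (0.0988).

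Carrier import genes fell mostly with siE1 and siE2. Of the 6, siE1 lowered 5, siE2 lowered 6 and siE3 lowered 2, beside 25.8%, 28.5% and 20.8% of all tested genes. TIMM9 and TIMM10 encode the partners of the chaperone ring that escorts carriers across the intermembrane space. TIMM10 stood at 51.2 and 53.5 CPM under siC, 39.9 and 40.2 with siE1, 39.1 and 37.6 under siE2, and 48.5 and 49.8 under siE3 (log2 fold changes -0.39, -0.45 and -0.09, edgeR adjusted p = 7.01e-05, 1.32e-05 and 0.234). TIMM9 stood at 47.5 and 52.2 CPM, 38.4 and 38.7, 34.9 and 33.5, and 45.6 and 49.0 in the same order (-0.37, -0.54 and -0.08, edgeR adjusted p = 2.84e-04, 6.71e-06 and 0.387). With siE3, TIMM9 overlapped siC and TIMM10 lay just under it, while siE1 and siE2 lay below both groups. siE2 minus siE3 was -0.36 in TIMM10 and -0.47 in TIMM9 (edgeR adjusted p = 1.74e-04 and 4.54e-05), and siE1 minus siE3 was -0.29 and -0.30 (edgeR adjusted p = 8.73e-04 and 0.00205).

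TIMM8A, a small TIM whose loss causes deafness-dystonia syndrome, fell evenly, from 25.2 and 24.3 CPM to 17.6 and 18.6, 18.1 and 16.7, and 18.6 and 17.9. Fold changes (log2) were -0.45, -0.51 and -0.44 (SE 0.0821 to 0.0828, edgeR adjusted p = 3.04e-04, 8.78e-05 and 5.32e-04). TIMM13, the partner of TIMM8A in a second chaperone ring, stood at 76.3 and 77.6 CPM and fell with siE1 (-0.18) and siE2 (-0.26), while -0.11 with siE3 was not called. Its siE1 call was lost without siC replicate 2 (edgeR adjusted p = 0.0715) or siE1 replicate 2 (0.122). TIMM8B fell with siE1 (-0.26) and siE2 (-0.21), the latter lost without siC replicate 2 (0.08), without siE2 replicate 2 (0.11) and with DESeq2 (0.056). TIMM22, the pore of the carrier translocase, went from 77.4 and 79.4 CPM to 61.5 and 62.4 with siE2 and to 63.5 and 61.7 with siE3 (-0.34 and -0.33), while siE1 left it at 80.02 and 78.8 (0.02, edgeR adjusted p = 0.802). siE1 was above both other siRNAs in TIMM22, by 0.36 and 0.34 (edgeR adjusted p = 2.98e-05 and 6.89e-05).

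TIMMDC1, named for its similarity to TIMM proteins and known as an assembly factor of respiratory complex I, was higher. It stood at 76.6 and 78.7 CPM under siC, 89.7 and 93.4 with siE1, 81.98 and 80.2 under siE2, and 89.2 and 88.2 under siE3. siE1 (0.24, edgeR adjusted p = 0.00104) and siE3 (0.19, edgeR adjusted p = 0.00639) raised it and siE2 was not called (0.06, edgeR adjusted p = 0.31). Without siC replicate 1 the siE3 call was lost (edgeR adjusted p = 0.0557).

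**Figure D3:**
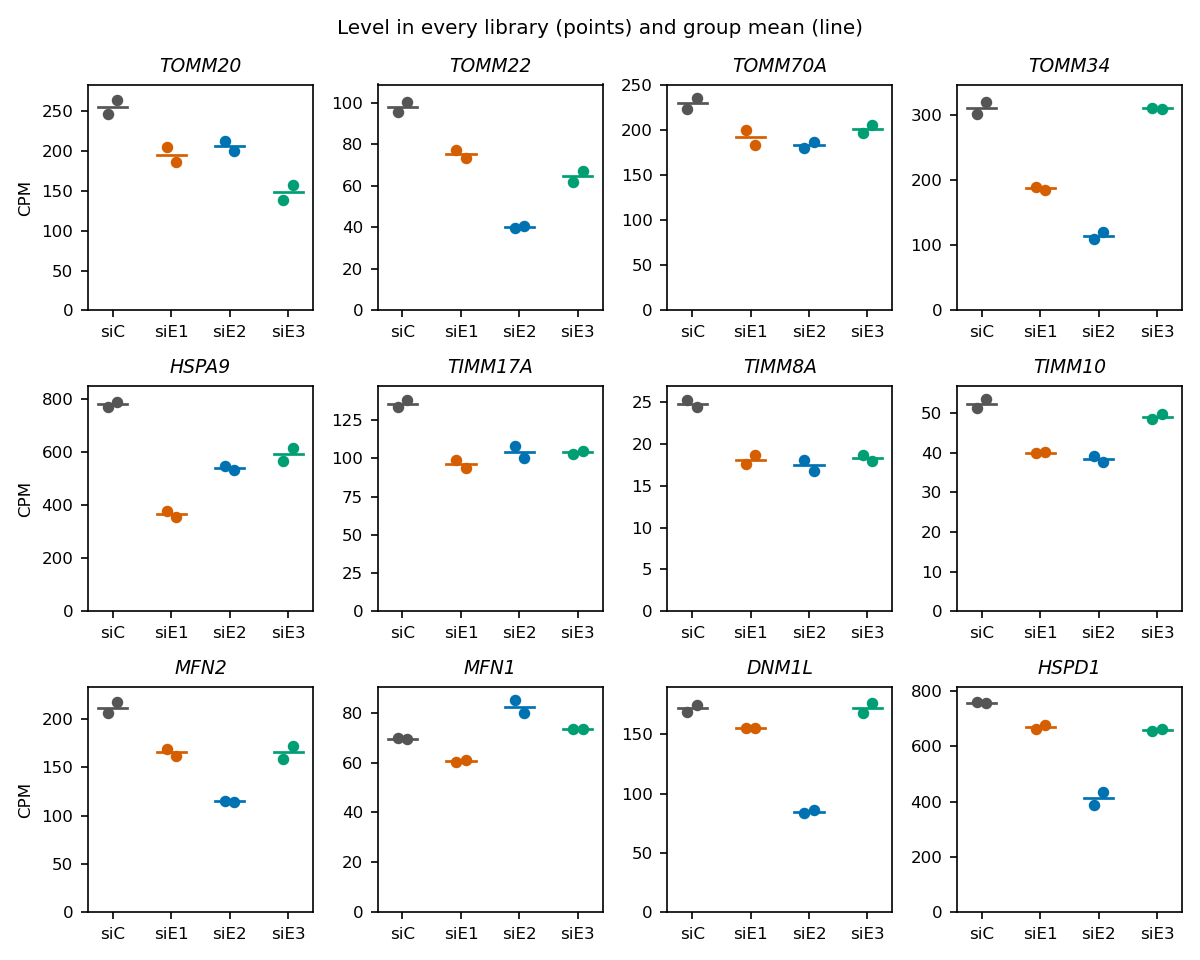
CPM (y axis, from 0) of 12 members in each of the 8 libraries, by siRNA (x axis). Points are libraries and lines are the means of the 2 libraries of a group. TOMM34 and DNM1L with siE3 lie at the level of siC, MFN1 moves up with siE2 and down with siE1, and HSPA9 is lowest with siE1.

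Fusion genes fell at MFN2 and OPA1 and split at MFN1. MFN2, a GTPase that tethers and fuses outer membranes, stood at 206 and 217 CPM under siC, 168 and 162 with siE1, 116 and 114 under siE2, and 159 and 172 under siE3. siE2 lay below all other groups, and siE1 and siE3 overlapped each other between siE2 and siC. The log2 fold changes were -0.36 (SE 0.0498), -0.88 (SE 0.0509) and -0.36 (SE 0.0499), with edgeR adjusted p = 2.64e-05, 1.8e-09 and 3.76e-05. siE2 minus siE3 was -0.53 (edgeR adjusted p = 7.17e-07), whereas siE1 minus siE3 was -0.001 (SE 0.0502). MFN1, its homolog, stood at 69.97 and 69.2 CPM, 60.1 and 60.9, 84.9 and 79.8, and 73.4 and 73.3 in the same order. It fell with siE1 (-0.20, edgeR adjusted p = 0.00584), rose with siE2 (0.24, edgeR adjusted p = 0.00111) and was not called with siE3 (0.08, edgeR adjusted p = 0.279).

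OPA1, which fuses inner membranes and shapes cristae, went from 365 and 366 CPM to 291 and 284 with siE1, 338 and 332 under siE2 and 306 and 325 under siE3 (log2 fold changes -0.34, -0.12 and -0.21, edgeR adjusted p = 8.64e-06, 0.0235 and 0.00102). The 6 siRNA libraries were all below siC. The siE2 step of OPA1 was lost without either siC library (edgeR adjusted p = 0.0724 and 0.0866), without either siE2 library (0.0568 and 0.125) and with scaling to library size only (0.0893).

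Among the 3 fission genes DNM1L was called lower with siE1 and siE2, MFF lower with siE1 and FIS1 higher with siE3. DNM1L encodes DRP1, the cytosolic dynamin that divides mitochondria and peroxisomes. It stood at 169 and 175 CPM under siC, 156 and 156 with siE1, 83.5 and 86.1 under siE2, and 168 and 177 under siE3. siE2 lay at 49.3% of the siC mean, far from the 3 other groups, and siE3 overlapped siC. Fold changes (log2) were -0.15 (SE 0.0457), -1.02 (SE 0.0475) and 0.003 (SE 0.0456), with edgeR adjusted p = 0.0151, 2.35e-10 and 0.966. Leaving out siC replicate 2 (edgeR adjusted p = 0.107) or either siE1 library (0.0648 and 0.0691) ended the siE1 call of DNM1L.

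MFF, an outer membrane adaptor that recruits DRP1, stood at 53.6 and 57.03 CPM under siC and fell to 41.5 and 37.9 with siE1 (-0.48, SE 0.0644, edgeR adjusted p = 1.79e-05). With siE2 and siE3 it was at 52.5 and 52.1 and at 54.0 and 56.5 CPM (-0.08 and -0.002, not called), and siE1 differed from both, by -0.40 and -0.48 (edgeR adjusted p = 8.12e-05 and 2.13e-05). FIS1, another outer membrane protein linked to fission, was at 40.3 and 36.1 CPM under siC and rose with siE3, to 46.0 and 44.0 (0.24, edgeR adjusted p = 0.0105). That call was lost without siC replicate 2 (edgeR adjusted p = 0.15) or siE3 replicate 1 (0.0646). With siE2, FIS1 was at 43.4 and 41.8 CPM (0.16, edgeR adjusted p = 0.0597) and passed with scaling to library size only (0.0249), a stricter filter (0.0369) or without siC replicate 1 (0.0246), and siE2 minus siE3 was -0.08 (0.349).

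The prohibitins PHB and PHB2 form ring-shaped scaffolds in the inner membrane and bind the m-AAA protease. PHB2 stood at 383 and 391 CPM under siC, 333 and 321 with siE1, 330 and 328 under siE2, and 301 and 293 under siE3 (log2 fold changes -0.24, -0.23 and -0.38, edgeR adjusted p = 1.39e-04, 1.56e-04 and 2.49e-06). PHB stood at 304 and 308 CPM, 290 and 284, 206 and 217, and 284 and 277 (-0.10, -0.53 and -0.13, edgeR adjusted p = 0.076, 6.85e-08 and 0.0271). PHB was lowest with siE2 (siE1 minus siE2 0.43, siE2 minus siE3 -0.40, edgeR adjusted p = 5.43e-07 and 1.83e-06), and PHB2 was lowest with siE3. The siE3 call of PHB was lost without either siC library (edgeR adjusted p = 0.0685 and 0.131), without siE3 replicate 2 (0.0968) and in a fit of only the groups compared (0.0577).

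The matrix chaperonin genes HSPD1 (Hsp60) and HSPE1 (Hsp10, its lid) lie head to head and share a promoter region. HSPD1 stood at 759 and 758 CPM under siC, 663 and 676 with siE1, 388 and 435 under siE2, and 655 and 664 under siE3. siE2 was far below, at 54.3% of the siC mean, and siE1 and siE3 overlapped each other between siE2 and siC. The log2 fold changes were -0.18 (SE 0.0479), -0.88 (SE 0.0486) and -0.20 (SE 0.048), with edgeR adjusted p = 0.00563, 1.15e-09 and 0.00324. HSPE1 stood at 52.9 and 52.4 CPM, 43.0 and 46.2, 38.3 and 38.97, and 50.6 and 47.7 (-0.24, -0.45 and -0.10, edgeR adjusted p = 0.00458, 2.05e-05 and 0.213). siE2 was lowest in both genes. It differed from siE3 by -0.68 in HSPD1 and by -0.35 in HSPE1 (edgeR adjusted p = 2.66e-08 and 3.16e-04). The siE1 call of HSPE1 was lost without siE1 replicate 1 (edgeR adjusted p = 0.0573).

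Promoter windows from RefSeq (GRCh38.p14, 250 bases before to 50 after a start) were on hand for 35 members, 40 windows in all. The ERR response element TNAAGGTCA, searched on both strands, was in 0 of the 40, and in 0.58% of the windows of all tested genes and 0.95% of all 35116 windows. With shares this low, 40 windows are too few to show whether the members lack the element. The core of the site of NRF1, a factor known for its role in nuclear genes of the organelle, was searched on both strands too and was in 9 of 40 windows (22.5%), and in 9.76% of those of tested genes. The windows of HSPD1 and HSPE1 hold the same site, and this motif was chosen after the members' values were seen. A match is a description of letters, not of binding. The 9 members were TOMM20, TOMM40, TOMM7, TOMM34, OPA1, HSPD1, HSPE1, LONP1 and CLPX, a set that holds members lowered by all 3 siRNAs (TOMM20, OPA1, HSPD1 and LONP1), by 2 (TOMM40, TOMM7, TOMM34 and HSPE1) and by none (CLPX). Of these sites 5 are shown on the strand of the gene, 5′ to 3′, with the match in capitals, because the members that hold a match include genes lowered by all 3, by 2 and by none of the siRNAs. They are at chr2:197500322-197500351 for HSPD1 (minus strand) and HSPE1 (plus strand), the same bases read in both directions, and at chr20:44960392-44960421 for TOMM34 (minus strand), chr1:235128919-235128948 for TOMM20 (minus strand) and chr15:65185413-65185442 for CLPX (minus strand).
HSPD1: atcacccagcGCGCAGGCGCgctcgcccca
HSPE1: tggggcgagcGCGCCTGCGCgctgggtgat
TOMM34: ttcgccgccgGCGCTTGCGCccggaaggtg
TOMM20: ttcgcccactGCGCAGGCGCaggagccgcg
CLPX: cgggcctaggGCGCAGGCGCgcgcaagctc

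Among the 5 proteases, LONP1 and AFG3L2 fell and the others did not fall at the threshold. LONP1, the matrix protease that clears oxidised and misfolded proteins, stood at 176 and 185 CPM under siC, 152 and 148 with siE1, 153 and 156 under siE2, and 168 and 157 under siE3 (log2 fold changes -0.27, -0.22 and -0.15, edgeR adjusted p = 2.87e-04, 9.3e-04 and 0.0198). AFG3L2, a subunit of the m-AAA protease of the inner membrane, stood at 171 and 183 CPM, 148 and 148, 158 and 150, and 137 and 145 (-0.26, -0.20 and -0.33, edgeR adjusted p = 5e-04, 0.00314 and 8.77e-05). In both genes all 6 siRNA libraries lay below siC. The siE3 call of LONP1 was lost without siC replicate 2 (edgeR adjusted p = 0.167) or siE3 replicate 2 (0.137), and the siE2 call of AFG3L2 without siC replicate 2 (0.0534).

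CLPP and CLPX encode the peptidase and the unfoldase of a second matrix protease. CLPP rose with siE1, to 72.8 and 76.9 CPM from 66.5 and 67.0 (0.17, edgeR adjusted p = 0.0194). The call of CLPP was lost without siC replicate 1 (edgeR adjusted p = 0.0894), siC replicate 2 (0.0736) or siE1 replicate 2 (0.184) and with DESeq2 (0.0552). CLPX (74.4 to 85.0 CPM) and YME1L1, the i-AAA protease that also cleaves OPA1 (260 to 293 CPM), had log2 fold changes from -0.13 to 0.02 and were not called. CLPX was called lower with siE2 without siC replicate 1 (edgeR adjusted p = 0.036), siE3 replicate 1 (0.0459) or siE3 replicate 2 (0.0456).

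The siRNAs differed from each other in most members. At least 1 pair of siRNAs differed in 30 of 39 (75.2% of all tested genes) and all 3 pairs in 6, TOMM22, TOMM34, HSPA9, TIMM9, MFN1 and DNM1L (17.7%), so the members were close to the background in this respect. Of these 6, all but TOMM34 had a pair whose call was lost under some alternatives. siE2 and siE3 left close levels of ESRRA, with a difference of -0.065 (SE 0.113, edgeR adjusted p = 0.673). Between them 16 members were lower with siE2 and 5 higher, beside 25.0% lower and 23.4% higher among all tested genes. The widest gaps were in TOMM34 (-1.43), DNM1L (-1.02), TOMM22 (-0.68), HSPD1 (-0.68), MFN2 (-0.53) and TOMM5 (-0.53). TOMM20 (0.48), TOMM40L (0.27), MFN1 (0.17), PHB2 (0.15) and AFG3L2 (0.13) were higher with siE2 than with siE3. Some of these calls did not hold under every alternative. Among those lower with siE2, TIMM13 and TIMMDC1 (edgeR adjusted p = 0.045 and 0.0448) were each lost in 14 settings, TOMM70A in 7, and TIMM21 and HSPA9 in 5. Among those higher with siE2, AFG3L2 was lost in 9 settings, MFN1 in 2, and TOMM40L and PHB2 in 1. With scaling to library size only, 11 members were lower and 6 higher, in place of 16 and 5. Without siE2 replicate 1 the calls of MFN1 (edgeR adjusted p = 0.181), PHB2 (0.0551), TOMM40L (0.0748) and AFG3L2 (0.31) were lost, the last also with the replicate block (0.0696) and DESeq2 (0.0874). Without siE2 replicate 1 this comparison called 13 members, 12 lower and 1 higher, in place of 21.

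**Figure D4:**
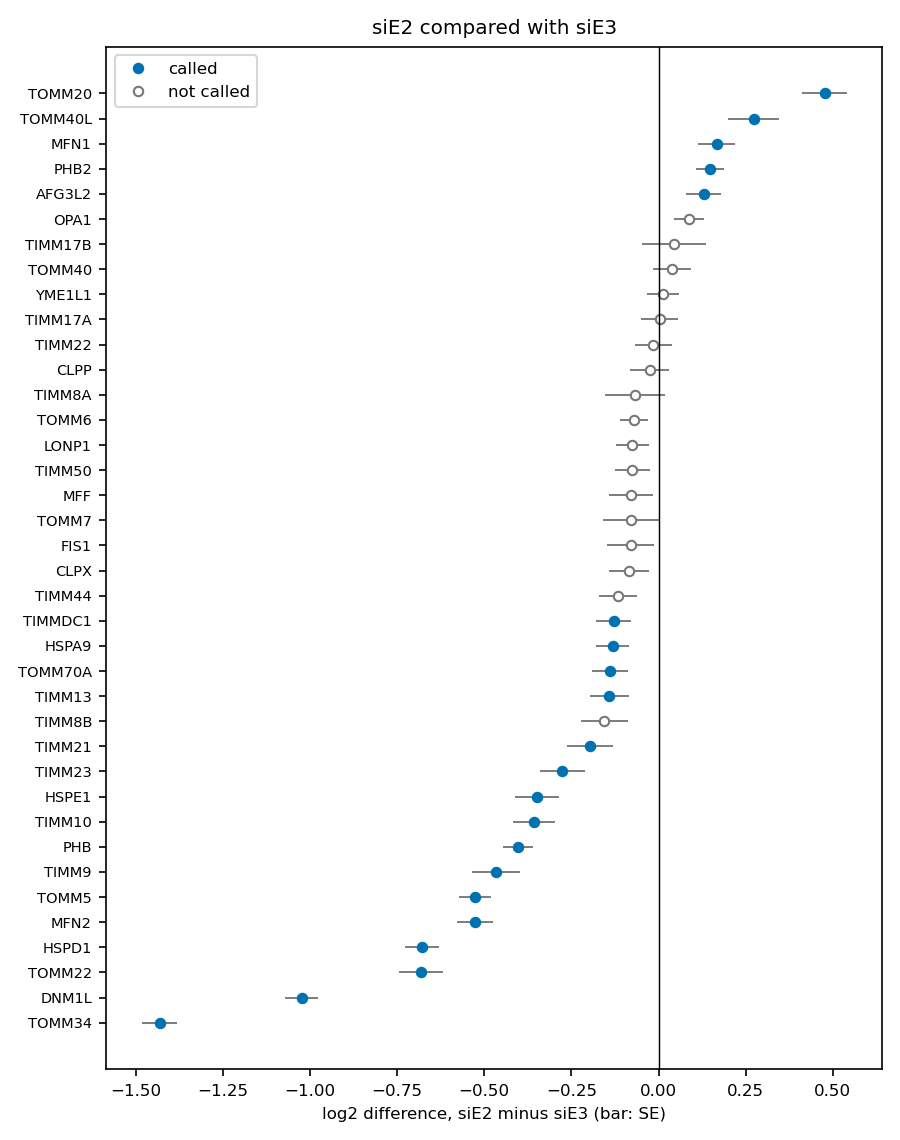
log2 difference, siE2 minus siE3 (x axis, bars are the SE), for the members in order of size. TOMM20L is left out because its SE of 0.477 would set the scale. Filled points passed an edgeR adjusted p of 0.05: 16 are below 0, down to TOMM34 at -1.43, and 5 are above 0, up to TOMM20 at 0.48.

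siE1 minus siE2 was called in 21 members, 16 higher and 5 lower with siE1 (28.5% and 28.6% of all tested genes). siE1 minus siE3 was called in 18, 7 higher and 11 lower (23.3% and 25.4%). The 1.5-fold limit left 2 in siE1 minus siE3 (13.6% of all tested genes). siE1 stood apart from siC and both other siRNAs in 9 members (23.1%, beside 23.9% of all tested genes), siE2 in 13 (33.3%, beside 27.5%) and siE3 in 5 (12.8%, beside 16.0%), shares near the background. Those of siE3 were TOMM20, TOMM22, TOMM40L, HSPA9 and PHB2. All but TOMM20 had a call between siE3 and another siRNA that was lost under some alternatives. For PHB2 this was so against both siE1 and siE2. TOMM22 between siE1 and siE3 (0.23) was lost without siE1 replicate 1 (edgeR adjusted p = 0.0585) or siE3 replicate 1 (0.0619), and DNM1L between them (-0.15) without siE1 replicate 1 (0.0634), siE1 replicate 2 (0.0672) or siE3 replicate 2 (0.0871). TIMM9 differed between siE1 and siE2 by 0.17 (edgeR adjusted p = 0.0465), a call that was lost without either siE1 library (0.111 and 0.149) or either siE2 library (0.0648 and 0.208), with the replicate block (0.0615), with scaling to library size only (0.0994), with DESeq2 (0.11) and with limma-voom (0.0513).

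A list of 60 further symbols of the same processes, which can hold more than 1 name of a gene, gave 57 rows of the table, all tested. Of these companion genes siE1 lowered 26 and raised 7, siE2 lowered 27 and raised 9, and siE3 lowered 20 and raised 8 (45.6%, 47.4% and 35.1% lower, beside 25.8%, 28.5% and 20.8% of all tested genes, where 24.5%, 27.9% and 21.3% were higher), at medians of -0.14, -0.16 and -0.10. The lean to lower was clearest in import genes and in cristae and scaffold genes. With siE1, siE2 and siE3, 10, 9 and 8 of 21 import genes fell and 1, 1 and 2 rose. Of 9 cristae and scaffold genes 6, 7 and 4 fell and 0 rose. Calls were more divided among 17 dynamics genes (7, 6 and 6 lower, 4, 4 and 5 higher). The same held for 10 proteostasis genes (3, 5 and 2 lower, 2, 4 and 1 higher). Of the 57, all 3 siRNAs lowered 12 and raised 4 (7.42% and 8.73% of all tested genes). Named are the 8 with the smallest p in the average. GRPEL1, the nucleotide exchange factor of HSPA9, fell from 154 and 163 CPM to 137 and 125, 77.0 and 80.7, and 109 and 112 (log2 fold changes -0.27, -1.004 and -0.52). DNAJA3, a J-protein partner of HSPA9, fell by 0.70, 0.48 and 0.36 on the log2 scale with siE1, siE2 and siE3. TRAP1, the Hsp90 of the organelle, stood at 322 and 329 CPM under siC and at 203 to 247 in the siRNA libraries (-0.66, -0.64 and -0.41). CHCHD4 (MIA40), which oxidises the small TIMs and other imports of the intermembrane space, was at -0.45, -0.57 and -0.89. GDAP1, an outer membrane protein linked to fission, was at -0.67, -0.56 and -0.86. These 5 genes fell with every siRNA.

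The other 3 of the 8 rose with every siRNA. FAM73A (MIGA1), which promotes fusion at the outer membrane, went from 17.98 and 15.6 CPM to 38.7 and 39.6 with siE1, 26.2 and 27.6 under siE2 and 54.3 and 55.2 under siE3 (log2 fold changes 1.22, 0.68 and 1.71, edgeR adjusted p = 5.88e-09, 3.36e-06 and 2.99e-10). PINK1, the kinase that marks mitochondria with failing import for removal, went from 70.5 and 67.7 CPM to 120 and 117, 162 and 150, and 106 and 95.7 (0.78, 1.17 and 0.55, edgeR adjusted p = 5.19e-08, 4.87e-10 and 3.38e-06). INF2, a formin that assembles actin at fission sites, was at 0.52, 0.58 and 0.37. The siRNA and siC libraries did not overlap in any of these 3 genes. The 8 genes were picked for their small p in these same libraries. Neither this lack of overlap nor their calls against siC are thus separate support.

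Some members share exonic bases with a neighbour in GENCODE v29 (GRCh38), where the assignment of shared reads is unknown. HSPD1 and HSPE1 share 281 bases on opposite strands, and HSPE1 also shares 192 with the read-through gene HSPE1-MOB4. All 637 exonic bases of TOMM6 lie in AL365205.1 on the same strand, and PHB shares 25.1% with AC091180.3 on the opposite one, both without a row in the table. TIMMDC1 shares 29.2% of its exonic bases with CD80, TOMM40L 20.1% with NR1I3, TIMM9 14.9% with KIAA0586 and 11.5% with TOMM20L, and AFG3L2 12.6% with TUBB6, all on opposite strands. The bases shared with TIMM9 are 27.9% of those of TOMM20L. TOMM20L is at 0.259 to 0.857 CPM and TIMM9 at 33.5 to 52.2. The part of TIMM9 reads in the TOMM20L counts was not tested. TIMM8B shares 30.1% with NKAPD1 and TIMM13 15.9% with TMPRSS9 on the opposite strand, and TIMM13 shares 257 bases with LMNB2 on its own. PHB2 holds SCARNA12 on its own strand (9.6%). TIMM23 has a near-identical copy, TIMM23B, and HSPD1 many processed copies, so the values of these 2 genes are uncertain to that extent. By the authors' deposited table, 24, 28 and 17 members had an adjusted p below 0.05 with siE1, siE2 and siE3, and all of them were called here in the same direction.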

How the data were processed

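RNA-seq was deposited for 8 libraries. Per the submitters' processing notes TopHat 1.3.3, HTSeq, DESeq and the build hg19 were used; their annotation, strand setting and filters were not stated. Per the file headers the authors' deposited table holds raw counts per gene symbol and, per siRNA, a linear fold (ratio) with an adjusted p-value. The fold and p-value columns served only for a comparison of calls.

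Of 23368 symbols, 13395 passed filterByExpr of edgeR 4.0.16. Counts were scaled by TMM and fitted over all 8 libraries with 1 mean per group (4 residual degrees of freedom, biological coefficient of variation 4.08%). The quasi-likelihood test (glmQLFTest) was used for 7 contrasts, with Benjamini-Hochberg adjustment over all tested genes and a threshold of 0.05. Each SE was taken as the absolute log2 change over the square root of F. The members, lists and tests were chosen with earlier results of these data known, and the NRF1 motif after the members' values were seen. Genes given with values in every library are those called alike by all 3 siRNAs, in opposite directions, set apart by a siRNA, or with the 2 smallest p in their role, with others for context. Alternatives were DESeq2 1.42.0 size factors or Wald test, library size, 2 other filters, limma-voom (limma 3.58.1), a block on the replicate number, a fit restricted to the compared groups, a 1.5-fold limit and leaving out each library. The fit was tested on simulated data. R was 4.3.3, Python 3.11.15. Libraries of a group were compared by chi-square over 12364 genes (3.11 to 5.12 per degree of freedom), so none was a copy. Depth is the total count of a library, and the precision at the lowest levels is limited by it. The GENCODE and RefSeq tables are on GRCh38, so no gene coordinates are given for the hg19 counts.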

Additional observations from a re-analysis of the deposited data

Results flagged for a closer look

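TOMM5 and MFN1 were called in opposite directions by 2 siRNAs, with the difference between those siRNAs itself past the threshold. TOMM5 was higher with siE1 than with siE2 by 0.551 and lower with siE2 than with siE3 by a log2 difference of -0.526 (edgeR adjusted p = 1.03e-07 and 2.97e-07). MFN1 was lower with siE1 than with siE2 by a log2 difference of -0.444 (edgeR adjusted p = 4.15e-06). TOMM5 shares exonic bases with AL138752.2 (14.3%) and AL513165.2 (9.3%) in GENCODE v29, and the part of these in its values was not tested.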

How the results depend on the processing

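Over 336 log2 fold changes of the 39 members, the 8 named companion genes and ESRRA, the alternatives other than the 1.5-fold limit gave 5318 values. Of these, 5121 stayed on their side of the threshold, 173 lost it, 24 gained it and 0 turned in direction past it. The 1.5-fold limit left 2, 5, 2 and 3 members called with siE1, siE2, siE3 and their average (14.7%, 18%, 9.97% and 9.53% of all tested genes). It left 4, 2 and 4 for siE1 minus siE2, siE1 minus siE3 and siE2 minus siE3 (19.1%, 13.6% and 12.6% of all tested genes). With a library left out the counts ranged from 23 to 28 (siE1), 25 to 31 (siE2), 17 to 22 (siE3), 26 to 31 (average), 17 to 21 (siE1 minus siE2), 14 to 18 (siE1 minus siE3) and 13 to 19 (siE2 minus siE3, 13 without siE2 replicate 1). Where an arm then held 1 library, that library was taken to vary like the other groups.

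Deviations of same-numbered libraries from their group means had correlations from -0.174 to 0.0925. They were taken over all tested genes, low counts included, where counting noise can hide a shared shift. Whether the numbers pair the samples therefore cannot be decided from these correlations. With the replicate block 10 calls of these genes were lost and 0 gained, and no count of members called moved by over 1.5 times. Scaling to library size moved the median of all genes by at most 0.0432 on the log2 scale. The fit of only the groups compared is the same as the reported fit for the average and was not run for it. TOMM20L, below 1 CPM, is the member whose depth limits it most (SE 0.396 to 0.419 against siC).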
